A study of Mus musculus with 6 samples.

Results

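The 8 genes described here, *Drd1*, *Drd2*, *Adora2a*, *Penk*, *Tac1*, *Ppp1r1b*, *Rgs9* and *Pde10a*, are widely used markers of the projection neurons of the striatum. They were taken by gene name from the table of mRNA levels of the 6 neocortex libraries, where they are 8 of 13299 genes. They were chosen by their FPKM in these same libraries, which differed between single libraries, so those levels are given as a description and without a test. RNA-seq was done on dissected neocortices of 3 adult male HuD KO mice (*Elavl4*-/-) and 3 wildtype littermates (controls), all on a C57BL/6 background and 3 to 4 months old. HuD KO mice lack HuD, a neuronal RNA-binding protein, in all cells from the germline on, since exon 2 of *Elavl4* was replaced by a PGK-Neo cassette. No treatment is labelled. Levels are in FPKM, the fragments of a gene scaled by transcript length and by the mapped fragments of the library. They are thus relative to the other RNA of a library. The transcript lengths used are not described in the sources used here, so comparisons between genes are approximate. A library is named by its genotype and replicate number, as in control 3 or HuD KO 1.

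Projection neurons make up most of the neurons of the striatum and use GABA as their transmitter. Those of the direct pathway carry the dopamine D1 receptor and release substance P and dynorphin, and those of the indirect pathway carry the dopamine D2 and adenosine A2a receptors and release enkephalin. Both kinds relay these signals through cAMP: D1 and A2a receptors raise it, D2 receptors lower it, phosphodiesterase 10A breaks it down, and DARPP-32 is switched by the kinase that cAMP activates. The striatum lies directly under the neocortex, across the white matter. Several of these mRNAs are also made by cortical neurons, among them *Drd1* and *Ppp1r1b* in deep layers and *Penk* and *Tac1* in interneurons.

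*Elavl4* was at 34.2, 30.4 and 28.3 FPKM in control libraries 1, 2 and 3 and at 1.70, 1.07 and 1.52 FPKM in HuD KOs 1, 2 and 3, in accord with the labelled genotypes. The difference was -3.61 ± 0.11 (SE) on the log2(FPKM + 1) scale, with adjusted p = 0.000687 in limma. All 8 markers of cortical excitatory neurons, such as *Slc17a7* (the vesicular glutamate transporter VGLUT1, 95.4 to 217 FPKM), were measured in every library. The study left HuD KO 2 out as an outlier, and the comparison of genotypes below therefore uses 5 libraries unless 6 are named. Control 3 had 289.5 FPKM summed over 8 hypothalamic markers, led by *Pmch* (melanin-concentrating hormone) at 127 FPKM, against 1.59 to 4.41 FPKM in the other 5 libraries, and 6 of the 8 were listed at 0 in at least 1 library. The 5 choroid plexus markers, led by *Ttr* (transthyretin), summed to 301 FPKM in control 3, 162 in HuD KO 1 and 89.6 in HuD KO 3, and to 3.27 to 6.50 FPKM in the other 3 libraries. The part of these tissues in the results below was not tested.

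The striatal mRNAs were highest in 1 library of each genotype. Summed over the 8 genes, the level was 52.1, 49.7 and 210.2 FPKM in control libraries 1, 2 and 3 and 194, 124 and 59.6 FPKM in HuD KOs 1, 2 and 3. The largest parts of every sum were *Penk* and *Ppp1r1b*, which cortical neurons also make. Control 3 and HuD KO 1 were the highest 2 of the 6 libraries for 7 of the 8 genes, beside 11.7% of the 13114 genes whose mean was 0.5 FPKM or more. All 8 genes passed that filter. The highest library was at least 2 times the lowest for 8 of 8 genes and at least 4 times for 7 of 8, beside 22.9% and 4.38% of all genes. Since the genes were picked for such differences, nothing follows from these counts. In bulk tissue, more cells of a type and more RNA per cell cannot be told apart.

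**Figure D1:**
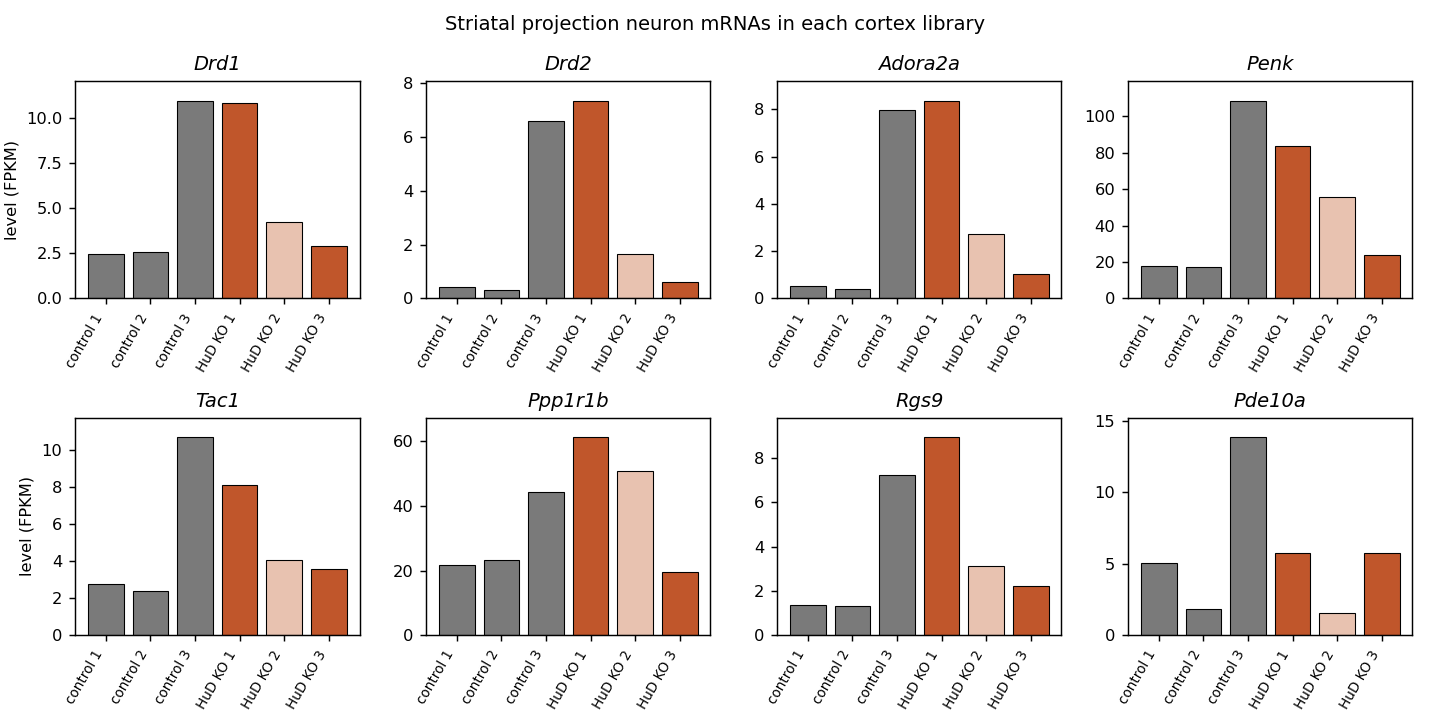
Level in FPKM (vertical axis, from 0, a separate scale for each gene) of the 8 striatal mRNAs in each of the 6 libraries; gray bars are controls, dark orange bars are HuD KOs 1 and 3, and the pale bar is HuD KO 2, which the study left out. Each bar is 1 library. Control 3 and HuD KO 1 hold the highest bars for all genes but *Ppp1r1b*, where HuD KO 2 (50.8 FPKM) exceeds control 3 (44.4 FPKM).

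The dopamine receptors were both high in control 3 and HuD KO 1. *Drd1*, the D1 receptor of direct-pathway neurons (chr13:54051183-54055705, minus strand, mm10), was at 2.45, 2.60 and 10.96 FPKM in control libraries 1, 2 and 3 and at 10.9, 4.23 and 2.91 FPKM in HuD KOs 1, 2 and 3. Control 3 and HuD KO 1 were nearly equal, and the other 4 libraries lay well below them. *Drd2*, the D2 receptor of indirect-pathway neurons (chr9:49340627-49408177, plus strand), was at 0.430, 0.323 and 6.60 FPKM in the control libraries and at 7.35, 1.66 and 0.628 FPKM in the HuD KO libraries. It was the lowest of the 8 genes in all 3 controls and in HuD KO 3, and *Pde10a* was the lowest in HuD KOs 1 and 2. *Drd1* exceeded *Drd2* by 5.69 and 8.06 times in controls 1 and 2 and by 4.64 times in HuD KO 3. In control 3 and HuD KO 1 the same ratio of FPKM was 1.66 and 1.48, and in HuD KO 2 it was 2.55. The ratio of these mRNAs therefore differed between libraries of one genotype along with their levels. In controls 1 and 2 and HuD KO 3 it rests on *Drd2* at 0.323 to 0.628 FPKM. Since cortical neurons also make *Drd1*, the ratio does not give the balance of the pathways.

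*Adora2a*, which encodes the adenosine A2a receptor found beside D2 receptors on indirect-pathway neurons (chr10:75316877-75334784, plus strand), was at 0.541, 0.420 and 7.96 FPKM in controls 1, 2 and 3. In HuD KOs 1, 2 and 3 it was at 8.36, 2.704 and 1.03 FPKM. *Drd2* and *Adora2a* kept a similar proportion in all libraries, with 0.612 to 0.880 FPKM of *Drd2* per FPKM of *Adora2a*, while the highest library exceeded the lowest by 22.8 times for *Drd2* and 19.9 times for *Adora2a*. *Drd1* relative to *Rgs9* was likewise within a narrow span, 1.22 to 1.95.

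The neuropeptide precursors had the same leading libraries. *Penk*, the precursor of enkephalins (chr4:4133531-4138819, minus strand), was at 17.9, 17.5 and 108 FPKM in the control libraries and at 83.7, 55.5 and 23.96 FPKM in the HuD KO libraries. It was the most abundant of the 8 mRNAs in control 3 and in all 3 HuD KO libraries, and was second to *Ppp1r1b* in controls 1 and 2. *Tac1*, the precursor of substance P (chr6:7554879-7565834, plus strand), was at 2.74, 2.41 and 10.7 FPKM in the control libraries and at 8.15, 4.05 and 3.58 FPKM in the HuD KO libraries. The ratio of *Penk* to *Tac1* was 6.52, 7.26 and 10.1 in the control libraries and 10.3, 13.7 and 6.70 in the HuD KO libraries, so the enkephalin precursor was relatively more abundant in the libraries where both were high, and most so in HuD KO 2. The *Penk* locus shares 233 exonic bases with the antisense gene *A830012C17Rik*. The libraries were made with a method that marks strand, but the sources used here do not give whether the counting used it, so reads of the pair may not have been told apart.

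The mRNAs of the cAMP and G protein machinery were less alike. *Ppp1r1b* encodes DARPP-32, which inhibits protein phosphatase 1 once it is phosphorylated (chr11:98348404-98357796, plus strand). It was at 21.6, 23.2 and 44.4 FPKM in the control libraries and at 61.2, 50.8 and 19.5 FPKM in the HuD KO libraries, so that HuD KO 1 and HuD KO 2 were above every control and HuD KO 3 was below all of them. Its locus shares 460 exonic bases with the antisense gene *1700003D09Rik*. *Rgs9* encodes a regulator that speeds the switching-off of inhibitory G proteins (chr11:109225355-109298129, minus strand), and was at 1.37, 1.34 and 7.24 FPKM in the control libraries and at 8.93, 3.12 and 2.24 FPKM in the HuD KO libraries. It followed the receptors closely.

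*Pde10a* encodes a phosphodiesterase that degrades cAMP and cGMP (chr17:8525372-8986648, plus strand), and stood apart from the other 7 genes. It was at 5.06, 1.86 and 13.8 FPKM in the control libraries and at 5.75, 1.57 and 5.74 FPKM in the HuD KO libraries. Control 3 was again the highest library, but HuD KO 1 was above HuD KO 3 by only 0.00827 FPKM, and HuD KO 2 was the lowest of all. *Pde10a* has by far the longest locus of the 8, 461277 bases with 14 annotated transcripts, and the levels are for the whole gene.

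For each gene, the level in each library was also expressed as log2(FPKM + 1) minus its mean over the 6 libraries. The median of these relative levels over the 8 genes was -0.79, -0.92 and 1.23 in controls 1, 2 and 3 and 1.05, -0.07 and -0.63 in HuD KOs 1, 2 and 3. HuD KO 2 lay between HuD KO 1 and HuD KO 3 for 7 of the 8 genes. HuD KO 3 lay above both control 1 and control 2 for 7 of the 8, the exception being *Ppp1r1b*. The SD within genotype over the 6 libraries, on the log2(FPKM + 1) scale, was from 0.72 for *Ppp1r1b* to 1.32 for *Drd2*, beside a median of 0.17 over all genes. Each library is 1 animal, so no error can be given for the level of a single library or for the order of the libraries.

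**Figure D2:**
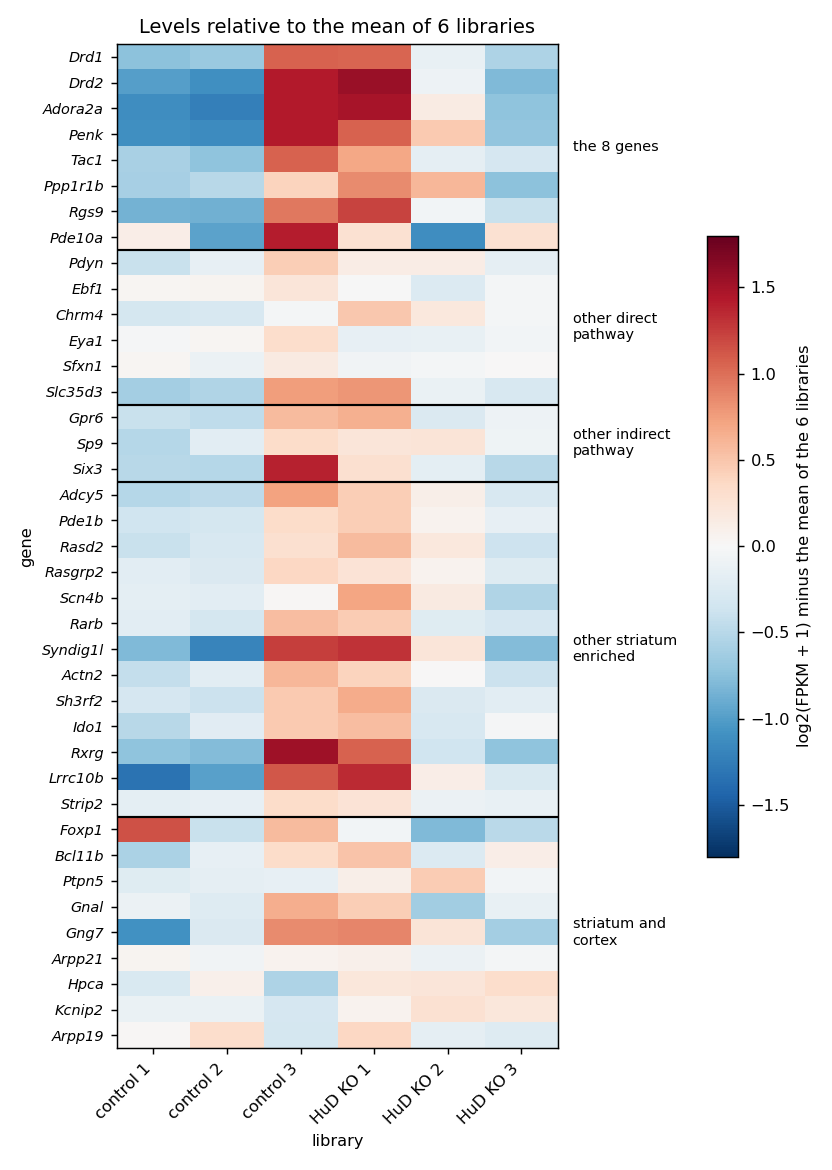
Relative level, log2(FPKM + 1) minus the mean of the 6 libraries (color, red above and blue below the mean), of the 8 genes and of 31 of the 32 other striatal genes in 4 lists (vertical axis; 1 is not reported by name) in each library (horizontal axis). The columns of control 3 and HuD KO 1 are mostly red in the upper 4 blocks, and those of controls 1 and 2 mostly blue; the lowest block, genes shared by striatum and cortex, is mixed.

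The size of the difference between libraries depended on the gene. Within controls, control 3 exceeded the mean of controls 1 and 2 by 17.5 times for *Drd2* and 16.6 times for *Adora2a*, but by 1.98 times for *Ppp1r1b*. *Penk* was at 6.13 times, *Rgs9* at 5.35, *Drd1* at 4.34, *Tac1* at 4.15 and *Pde10a* at 4.00. Within HuD KOs, HuD KO 1 exceeded HuD KO 3 by 11.7 times for *Drd2*, 8.13 for *Adora2a*, 3.98 for *Rgs9*, 3.73 for *Drd1*, 3.49 for *Penk*, 3.14 for *Ppp1r1b*, 2.28 for *Tac1* and 1.00 for *Pde10a*. In both genotypes the mRNAs of the indirect-pathway receptors thus had the largest ratios of the 8. *Drd2* (0.323 to 0.628 FPKM) and *Adora2a* (0.420 to 1.03 FPKM) were also the lowest of the 8 in controls 1 and 2 and HuD KO 3. No depth is known, so how firmly these ratios were measured cannot be said. As amounts, control 3 exceeded the mean of controls 1 and 2 by 8.44 FPKM of *Drd1*, 6.22 of *Drd2*, 7.48 of *Adora2a* and 5.88 of *Rgs9*, and HuD KO 1 exceeded HuD KO 3 by 7.94, 6.72, 7.33 and 6.69 FPKM of the same genes. Those 4 amounts were close between the genotypes. The amounts differed more for *Penk* (90.7 and 59.7 FPKM), *Tac1* (8.12 and 4.57), *Ppp1r1b* (22.03 and 41.7) and *Pde10a* (10.4 and 0.00827).

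**Figure D3:**
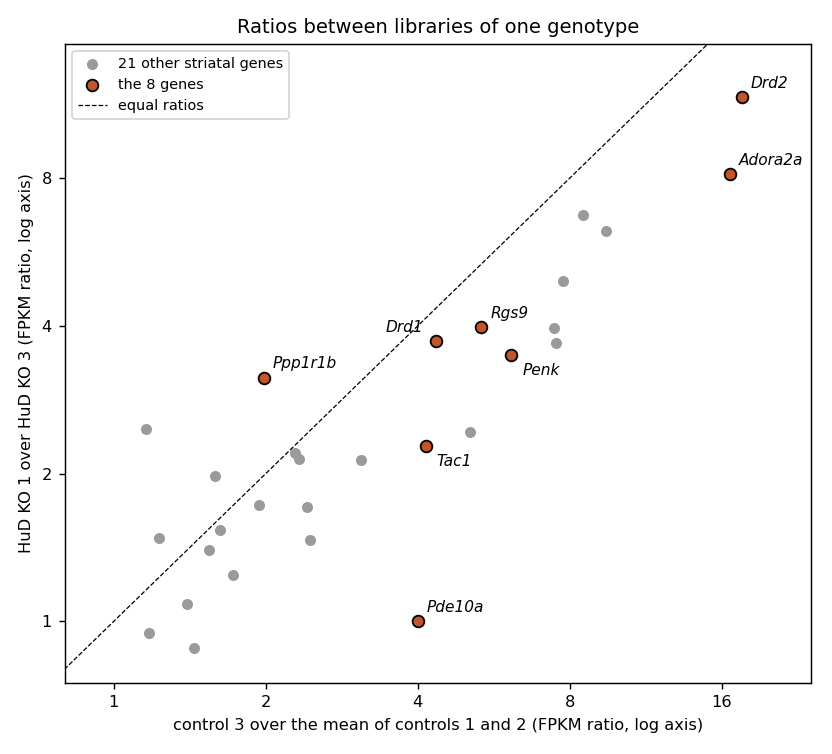
Ratio of FPKM between control 3 and the mean of controls 1 and 2 (horizontal log axis) and between HuD KO 1 and HuD KO 3 (vertical log axis), with 1 point per gene, for the 8 genes (orange) and 21 of the 23 other striatum-enriched genes (gray; *Six3* is left out because it is at or near 0 FPKM in several libraries, and 1 gene is not reported by name). The dashed line marks equal ratios. *Drd2* (17.5 and 11.7) and *Adora2a* (16.6 and 8.13) lie farthest to the upper right, and *Pde10a* (4.00 and 1.00) lies far below the line.

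Promoters of 5 of the 8 genes (*Drd1*, *Drd2*, *Tac1*, *Rgs9* and *Pde10a*) were matched in RefSeq (GRCm38.p6), as 7 windows of 250 bases before to 50 bases after a transcription start. Since these genes belong to a pathway that works through cAMP, the windows were searched on both strands for the cAMP response element TGACGTCA, its core CGTCA, the variant TGCGTCA, which contains the core, and the TATA motif TATAAA. The full element was in 0 of the 7 windows, beside 1.79% of all 32851 promoters. The core was in 1 (*Tac1*, 20.8% of all), the variant in 1 (*Tac1*, 2.12%) and TATAAA in 1 (*Rgs9*, 13.6%). The matches follow as windows of 26 bases, 5′ to 3′ on the strand of the gene and with the motif in capitals. They lie at chr6:7554852-7554877 and chr6:7555008-7555033 (plus strand) and chr11:109298361-109298386 (minus strand). The first base of the motif is at -199, -43 and -195 from the RefSeq start of the window. For *Tac1* that start lies inside the locus given above, not at its edge.
Tac1 variant: tccctaaaatTGCGTCAtttcgaaca
Tac1 core: tctacaggctCGTCAcgcctgagata
Rgs9 TATA motif: cacttctgtaTATAAAgagattaaca
A match describes the letters only. Of the genes shown, *Tac1* and *Rgs9* both followed the median of the 8 genes, as did *Drd1* and *Drd2*, whose windows held none of the motifs. The windows of *Pde10a* held none either.

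Between genotypes the levels of all 8 genes overlapped. *Drd1* was at 5.34 ± 4.87 FPKM (SD, n = 3) over the control libraries and 6.88 ± 5.61 FPKM (SD, n = 2) over the HuD KO libraries, *Drd2* at 2.45 ± 3.59 and 3.99 ± 4.75 FPKM, and *Adora2a* at 2.97 ± 4.32 and 4.69 ± 5.18 FPKM. *Penk* was at 48.0 ± 52.4 FPKM in the control libraries and 53.8 ± 42.2 FPKM in the HuD KO libraries, and *Tac1* at 5.28 ± 4.69 and 5.86 ± 3.23 FPKM. *Ppp1r1b* was at 29.8 ± 12.7 and 40.4 ± 29.5 FPKM, *Rgs9* at 3.31 ± 3.40 and 5.59 ± 4.73 FPKM, and *Pde10a* at 6.92 ± 6.20 and 5.75 ± 0.00585 FPKM. For every gene the difference between the means was smaller than the SD of the controls. The groups did not overlap for 0 of the 8 genes, beside 19.2% of all genes over 5 libraries and 10.1% over 6.

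On the log2(FPKM + 1) scale, the HuD KO mean was above the control mean for 8 of 8 genes, beside 44.5% of all genes, with differences from 0.08 for *Pde10a* to 0.69 for *Adora2a*. With a pseudocount of 0.1 in place of 1, which shrinks low levels less, *Adora2a* had 1.15, *Drd2* 1.02 in place of 0.60, and *Pde10a* 0.17. With the pseudocount of 1, the median of the 8 was 0.41, and that of all genes was -0.02. The median followed the libraries that were included. It was 1.11 without control 3 and 1.25 without HuD KO 3, 0.08 without control 1 and 0.12 without control 2. Without HuD KO 1 it was -0.42, so leaving out that 1 library turned its direction. With all 6 libraries it was 0.46, and *Pde10a* then had a difference of -0.38. Between controls 1 and 2 and HuD KOs 2 and 3, a set of libraries chosen after seeing these values, it was 0.54. No direction between the genotypes can be given for these genes from these libraries.

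**Figure D4:**
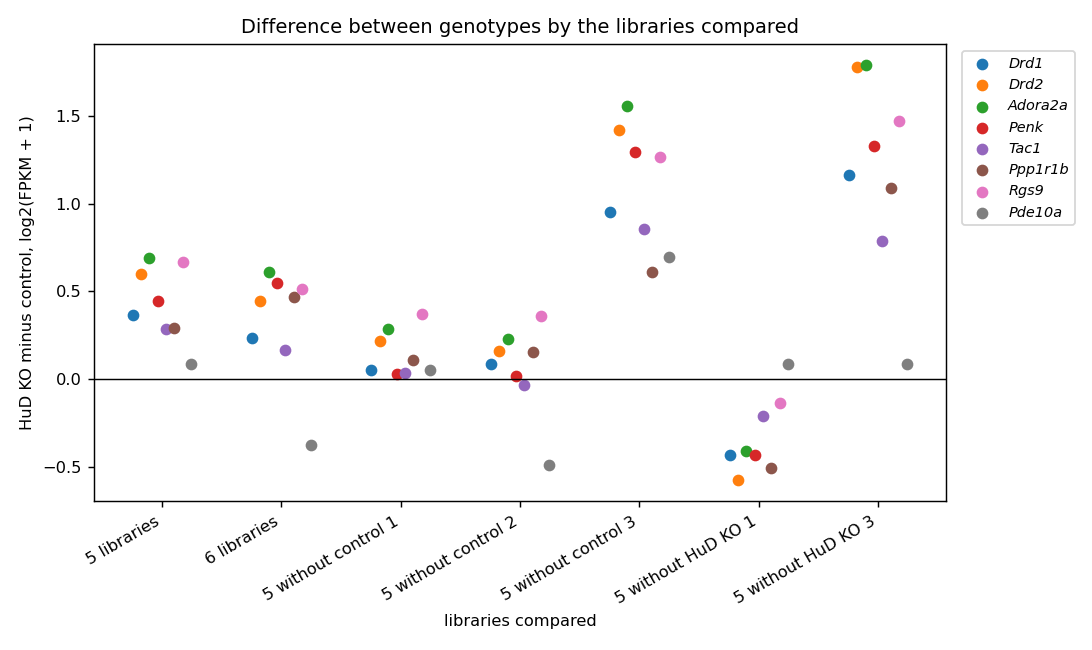
Difference between the HuD KO mean and the control mean of log2(FPKM + 1) (vertical axis) for each of the 8 genes (colors), by the libraries compared (horizontal axis). Points above 0 are higher in HuD KOs. The median is 0.41 over 5 libraries, 1.25 without HuD KO 3 and -0.42 without HuD KO 1, where only *Pde10a* stays above 0.

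Other genes of striatal projection neurons, taken from lists that leave out the 8, were compared between the genotypes with limma over all genes. Of 32 tested, 27 were higher and 5 lower in HuD KOs, with a median difference of 0.19 (log2). Of all genes, 44.5% were higher in HuD KOs over 5 libraries. None had an adjusted p under 0.05 in limma, over 5 or 6 libraries, beside 0.0457% and 0.0305% of all genes. At an unadjusted p under 0.05 there were 3 over 5 libraries and 4 over 6, beside 3.43% and 3.48% of all genes. The 3 were *Kcnip2* (a subunit of A-type potassium channels), *Hpca* (the calcium sensor hippocalcin) and *Ptpn5* (the phosphatase STEP), and all belong to the list of genes that striatum and cortex share.

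Those 3 genes did not follow the 8. They were named by p between genotypes, which favors a small spread within genotype. The 8 were picked for differences between libraries, so nothing follows from this contrast. *Kcnip2* was at 29.4, 29.4 and 25.7 FPKM in control libraries 1, 2 and 3 and at 33.3, 38.7 and 36.8 FPKM in HuD KOs 1, 2 and 3, with control 3 as the lowest library. *Hpca* was also lowest in control 3, at 88.6 FPKM, with 109 and 140.2 FPKM in controls 1 and 2 and 151, 152 and 163 FPKM in the HuD KO libraries. *Ptpn5* was at 26.8 to 28.3 FPKM in the control libraries and at 33.9, 43.5 and 30.4 FPKM in the HuD KO libraries. In all 3 the HuD KO libraries lay above all controls. Over 6 libraries the groups did not overlap, in either direction, for 10.1% of all genes. With differences of 0.31 ± 0.10, 0.50 ± 0.19 and 0.21 ± 0.08 (log2, SE) and adjusted p = 0.995 in limma, the 3 genes did not pass the test. *Bcl11b*, which encodes a transcription factor of striatal and deep cortical neurons, was the fourth of that list by p, with a difference of 0.45 ± 0.28 and an adjusted p of 0.995 in limma.

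The 23 genes of the other 3 lists, which are enriched in the striatum, were much closer to the 8. Control 3 and HuD KO 1 were the highest 2 libraries for 16 of the 23, and the median of their relative levels was -0.40, -0.29 and 0.47 in controls 1, 2 and 3 and 0.46, -0.04 and -0.19 in HuD KOs 1, 2 and 3. The order of the 6 medians was nearly that of the 8 genes, with a smaller span. Between genotypes 19 of the 23 were higher in HuD KOs and 4 lower, with a median of 0.19, beside 44.5% of all genes higher. In the relative levels HuD KO 1 and HuD KO 3 lay far apart (0.46 and -0.19), and control 3 was at 0.47. No direction between the genotypes can therefore be given for these genes either. None passed at an unadjusted p under 0.05 over 5 libraries and 1 did over 6, and the smallest adjusted p of those named here was 0.995 in limma.

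Among 14 enriched genes of both pathways, control 3 and HuD KO 1 led for 13. *Lrrc10b*, which encodes a leucine-rich repeat protein, was at 1.11, 1.70 and 10.6 FPKM in the control libraries and at 12.5, 4.77 and 3.39 FPKM in the HuD KO libraries. *Pde1b*, which encodes a calcium-dependent phosphodiesterase, was at 20.4 to 33.7 FPKM in the control libraries and 23.8 to 36.5 FPKM in the HuD KO libraries, and *Ido1*, which encodes a tryptophan-degrading enzyme, at 0.101 to 1.16 and 0.279 to 1.29 FPKM. In *Pde1b* and *Ido1*, as in *Lrrc10b*, HuD KO 1 and control 3 were the highest libraries.

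Other genes of single pathways were less uniform. Of 6 of the direct pathway, 3 were higher and 3 lower in HuD KOs (median -0.02), and control 3 and HuD KO 1 led for only *Slc35d3*, a transporter-family gene that affects D1 receptor traffic in mice, at 0.274, 0.342 and 2.29 FPKM in the control libraries and 2.40, 0.803 and 0.605 FPKM in the HuD KO libraries. *Chrm4*, the M4 muscarinic receptor, was at 8.997, 9.16 and 11.1 FPKM in the control libraries and 16.4, 13.2 and 11.1 FPKM in the HuD KO libraries, with HuD KOs 1 and 2 above every control. *Eya1* and *Ebf1*, which encode regulators of transcription, were at 1.08 to 1.60 and 0.516 to 0.732 FPKM in the control libraries and at 0.903 to 1.02 and 0.253 to 0.482 FPKM in the HuD KO libraries, with control 3 the highest library of both. *Ebf1* had a mean of at least 0.5 FPKM over 5 libraries but not over 6. Of 3 genes of the indirect pathway, *Gpr6*, an orphan receptor, was at 0.962, 0.880 and 2.85 FPKM in the control libraries and 3.01, 1.16 and 1.41 FPKM in the HuD KO libraries. *Sp9* and *Six3* encode transcription factors that act in the birth of these neurons. *Sp9* was at 0.511 to 1.70 and 1.03 to 1.51 FPKM, and *Six3* reached 2.72 FPKM in control 3 and 0.746 FPKM in HuD KO 1 and was at 0.265 FPKM or below in the other 4 libraries.

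The genes whose relative levels over the 6 libraries were most like the median of the 8 were sought among 11990 others with a mean of at least 1 FPKM, by the root mean square difference of the 6 values (log2). The nearest was *Rxrg* (retinoid X receptor gamma) at 0.18, then *Btbd6* and *Syndig1l* at 0.20 each, *Lrrc10b* at 0.30, *Slc35d3* at 0.31, *Sik1* (a salt-inducible kinase) and *Galnt16* (a glycosyltransferase) at 0.34 each and *Gng7* (a G protein gamma subunit) at 0.37. They were followed by *1500015O10Rik* at 0.41 and by *Adcy5* (the main adenylyl cyclase of the striatum) and *Cdhr1* (a cadherin) at 0.42. Of these 11 genes, 6 were in the lists of other striatal genes and 5 were not. *Rxrg* was at 0.888, 0.817 and 8.04 FPKM in the control libraries and at 5.53, 1.44 and 0.888 FPKM in the HuD KO libraries, and *Btbd6* at 2.69, 3.37 and 13.4 FPKM and at 15.2, 7.28 and 3.19 FPKM. Of the 8 genes themselves, *Drd1* (0.13) and *Rgs9* (0.17) were nearest to their own median, and *Ppp1r1b* (0.48) and *Pde10a* (0.75) were farthest.

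Most partners of the 8 genes in their signaling did not share the pattern. Of 21 genes of cAMP and G protein signaling, 16 were higher and 5 lower in HuD KOs (median 0.05), beside 44.5% of all genes higher. Over 5 libraries 0 passed in limma, beside 0.0457% of all genes, and 1 had an unadjusted p under 0.05, beside 3.43%. Control 3 and HuD KO 1 led for 5 of the 21, beside 11.7% of all genes. These were *Gnal*, *Adcy5*, *Pde1b*, *Prkar2b* and *Ppp1cb*. *Gnal*, *Adcy5* and *Pde1b* also belong to the striatal lists above. The genes described next were named by their p between genotypes, not by this pattern. *Gnb5*, the beta subunit that pairs with RGS9, was at 22.9, 33.3 and 24.8 FPKM in the control libraries and at 43.9, 43.2 and 40.4 FPKM in the HuD KO libraries. The groups did not overlap, and the difference was 0.64 ± 0.17 (log2, SE), with adjusted p = 0.995 in limma. *Adcy1*, a calcium-activated cyclase, was lowest in control 3, at 46.6 FPKM, and was at 79.5 to 109.8 FPKM in the other 5 libraries. *Ppp1cb*, a catalytic subunit of the phosphatase that DARPP-32 inhibits, was at 12.2 FPKM in HuD KO 3 and at 26.1 to 33.5 FPKM elsewhere. *Ppp3ca*, the calcineurin subunit that removes phosphate from DARPP-32, was at 142 FPKM in control 3 and 192 to 226 FPKM in the other libraries.

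Among 7 other receptors for opioids, tachykinins and adenosine, 4 were higher and 3 lower in HuD KOs, and 0 had an unadjusted p under 0.05 in limma over 5 libraries. *Adora1*, the A1 receptor, was at 21.0, 24.9 and 14.4 FPKM in the control libraries and 22.4, 24.8 and 22.9 FPKM in the HuD KO libraries, and so did not resemble *Adora2a*. *Oprl1* (the nociceptin receptor) was at 3.92 FPKM in HuD KO 1 and 5.74 to 12.4 FPKM in the other libraries, *Oprd1* (the delta opioid receptor, which binds enkephalins) at 2.61 FPKM in control 3 and 3.51 to 5.34 FPKM in the others, and *Tacr3* (a tachykinin receptor) at 2.02 FPKM in control 3 and 0.163 to 0.495 FPKM in the others. Control 3 and HuD KO 1 were the highest 2 libraries for 2 of the 7, beside 11.7% of all genes. These were *Oprk1* (the kappa opioid receptor), at 1.56 and 1.60 FPKM in those libraries and 0.171 to 1.09 FPKM in the others, and *Tacr1* (the substance P receptor), at 1.60 and 0.544 FPKM and at 0.126 to 0.293 FPKM in the others. Both were named after their values were seen.

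Markers of neighboring tissues moved with some of the libraries that led for the 8 genes. In control 3 the sum of the hypothalamic markers was 289.5 FPKM and that of the cortical excitatory markers was 173 FPKM, the lowest of the 6 libraries (240.5 to 383 FPKM in the others). In HuD KO 1 the hypothalamic sum was 4.41 FPKM and the cortical excitatory sum 279 FPKM, so HuD KO 1 had high striatal levels with hypothalamic markers near 0. All 5 choroid plexus markers were highest in control 3 and HuD KO 1, with *Ttr* at 287 and 157 FPKM. HuD KO 3 had 86.5 FPKM of *Ttr* but 0.628 FPKM of *Drd2*. The choline transporter of cholinergic neurons, *Slc5a7*, was at 2.23 FPKM in control 3, 0.758 in HuD KO 1 and 0.101 to 0.166 FPKM in the other 4 libraries. Only this 1 of 4 genes listed for cholinergic neurons of the striatum was measured, and it is not particular to the striatum. The 5 thalamic markers summed to 18.3 FPKM in control 3, of which 14.6 FPKM was *Slc17a6*, and to 7.87 to 10.9 FPKM elsewhere. The median relative level of the 5 was 0.08 in control 3, beside -0.10 to 0.10 in the others, so the high sum came from *Slc17a6*. The sums of 8 markers of GABAergic and cortical interneurons were 482 FPKM in control 3 and 510.1 FPKM in HuD KO 1, beside 501 to 742 FPKM in the others.

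**Figure D5:**
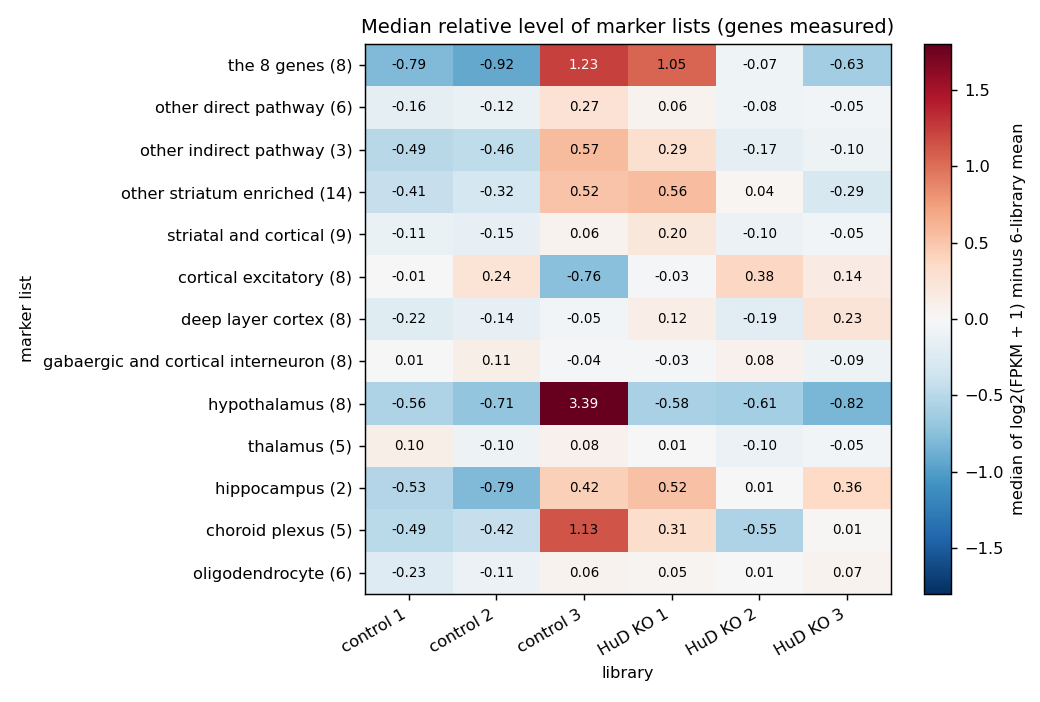
Median over the genes of each list (vertical axis, number of genes measured in brackets) of log2(FPKM + 1) minus the mean of the 6 libraries, in each library (horizontal axis, with the value printed in each cell; colors stop at 1.8). The 8 genes reach 1.23 in control 3 and 1.05 in HuD KO 1, while the hypothalamic list is high in control 3 only, at 3.39.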

How the data were processed

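Neocortex libraries of 3 controls and 3 HuD KOs were read from the table with all 6. FPKM values, as deposited by the authors, rest on STAR 2.7.3a alignments to mm10, after FastQC 0.11.5 and trimming by cutadapt and Trimmomatic, per the submitters' processing notes. The step from alignments to FPKM is not described in the sources used here. The table holds no counts, so depth is unknown and no detection limits can be given. Columns with the authors' own comparison (fold changes, p-values) and 1 line of sums were not used.

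Genes whose mean was 0.5 FPKM or more (13121 over 5 libraries, 13114 over 6) were tested after log2(FPKM + 1) in R 4.3.3 by limma 3.58.1 (eBayes with a trend, HuD KO against control, Benjamini-Hochberg, 0.05), which was also tested on simulated data. A log2 difference understates the change of genes of low FPKM. HuD KO 2 was left out, as in the study, and 6 libraries were an alternative, beside another pseudocount, filter, scaling or variance model, a replicate block and the omission of each library in turn. Each library is 1 animal, so p-values measure the spread between animals.

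The 8 genes and all gene lists were chosen with earlier results of these data known. The genes named are the 8, *Elavl4*, up to 4 per list with the smallest unadjusted p over 5 libraries, and the 12 nearest in relative levels, except for 1 that is not reported here by name; *Slc17a7*, *Slc17a6*, *Pmch*, *Ttr* and *Mbp* were named after their values were seen. Loci equal those of GENCODE vM21. Tables and figures were made in Python 3.11.15 with NumPy 2.4.6, pandas 2.3.3 and matplotlib 3.10.9.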

Additional observations from a re-analysis of the deposited data

Results flagged for a closer look

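HuD KO 2, which is outside the comparison of genotypes, had levels above every control library in 5 of the striatal genes named here. HuD KO 1 was above every control in these 5 genes as well. In *Kcnip2*, *Hpca* and *Ptpn5* so was HuD KO 3. The share of all genes with HuD KO 2 above every control was not computed, so nothing follows from the count. *Ppp1r1b* was at 50.8 FPKM in HuD KO 2, beside 44.4 FPKM in the highest control. *Chrm4* was at 13.2 FPKM, beside 11.1 FPKM. *Kcnip2* was at 38.7 FPKM, beside 29.4 FPKM. *Hpca* was at 152 FPKM, beside 140.2 FPKM. *Ptpn5* was at 43.5 FPKM, beside 28.3 FPKM. *Ptpn5* and *Kcnip2* had their highest level of all 6 libraries in HuD KO 2.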

How the results depend on the processing

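Over all genes, 6 passed at an adjusted p under 0.05 in limma. The count was 4 with all 6 libraries, 2 with a pseudocount of 0.1 and 2 to 11 with 1 library left out (2 without control 1 or without HuD KO 1, 11 without control 3). In alternatives chosen after seeing the data it was 3 between controls 1 and 2 and HuD KOs 2 and 3, and 2 over all 6 libraries with the median level of the 8 genes as a covariate. No pairing of samples by replicate number is labelled. Deviations of libraries of one number had correlations of -0.12, 0.18 and 0.04 over 13114 genes. With 2 libraries per number, these values cannot show whether the animals were paired. With the replicate block over 5 libraries the count was 3, and the median difference of the 8 genes was 0.12. Control 2 stands alone in that block, since HuD KO 2 was left out. The block difference therefore rests on controls 1 and 3 and HuD KOs 1 and 3, and its median is the same as without control 2. None of the other 32 striatal genes passed under any alternative. The median of the 8 genes ranged from -0.42 to 1.25 with 1 library left out, and from 0.41 to 0.46 under the other pseudocount, filters, scalings and variance model, while the pseudocount of 0.1 moved *Drd2* from 0.60 to 1.02, *Adora2a* from 0.69 to 1.15 and *Pde10a* from 0.08 to 0.17. Of 22 other genes named in the striatal and signaling lists 15 kept their direction throughout and 7 turned, each only in a comparison with 1 library left out. Over all alternatives *Slc35d3* ranged from -0.15 to 0.93, *Gpr6* from -0.0054 to 0.73, *Pde1b* from -0.036 to 0.56, *Oprl1* from -1.18 to 0.015, *Six3* from -0.62 to 0.17, *Ppp1cb* from -1.32 to 0.064 and *Adora1* from -0.014 to 0.36. The cause was not tested beyond the library left out. No depth is known, so how firmly the lowest levels (*Drd2*, *Adora2a*, *Six3*) were measured cannot be said.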

Other observations

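Other gene groups of the cortex were compared as well. Of 8 genes of deep cortical layers, 6 were higher and 2 lower in HuD KOs (median 0.37, log2), beside 44.5% of all genes higher. Of the 8, 4 had an unadjusted p under 0.05 in limma over 5 libraries, beside 3.43% of all genes. They included *Tle4*, a corepressor gene of layer 6, at 11.1, 11.9 and 11.6 FPKM in the control libraries and 16.9, 10.7 and 16.6 FPKM in HuD KOs 1, 2 and 3 (adjusted p = 0.514 in limma). Without regard to genotype, HuD KO 2 was the lowest library for *Tle4*. *Neurod6*, a transcription factor gene of cortical excitatory neurons, was at 23.8 to 44.1 FPKM in the control libraries, 58.7 and 60.6 FPKM in HuD KOs 1 and 3 and 29.7 FPKM in HuD KO 2 (adjusted p = 0.995 in limma).

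All 6 oligodendrocyte genes were higher in HuD KOs over 5 libraries (median 0.14), beside 44.5% of all genes. Of the 6, 2 had an unadjusted p under 0.05 in limma, beside 3.43% of all genes. They were *Opalin* and *Ermn*, which encode myelin proteins, with adjusted p = 0.995 for both in limma. Over 6 libraries *Mbp*, which encodes myelin basic protein, had a difference of -0.08. The sum of the 6 genes was 332 FPKM in control 3 and 329 FPKM in HuD KO 1, beside 269 to 357 FPKM in the other libraries. The 2 hippocampal genes, *Prox1* and *C1ql2*, summed to 6.33 FPKM in control 3 and 6.94 FPKM in HuD KO 1, but also to 6.05 FPKM in HuD KO 3. Of 6 genes that process neuropeptides, 3 were higher and 3 lower in HuD KOs, and *Pcsk2*, a protease that cuts precursors such as proenkephalin, was at 57.3, 66.1 and 41.3 FPKM in the control libraries and 71.1, 70.0 and 76.0 FPKM in the HuD KO libraries. Of 6 genes of dopamine supply and breakdown or of other dopamine receptors, 3 were higher and 3 lower and none had an unadjusted p under 0.05, with *Drd5* (the D5 receptor) at 0.332 to 1.04 FPKM in the control libraries and 0.382 to 1.09 FPKM in the HuD KO libraries.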
